A study of Homo sapiens with 8 samples.

Results

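The genes described here encode L-plastin and other proteins that tie actin filaments into bundles or networks. The set lists 7 genes: the plastins LCP1, PLS1 and PLS3, the bundler FSCN1, the alpha-actinins ACTN1 and ACTN4, and the filamin FLNA. A gene was measured where a probe set of the deposited log2 table carried its symbol and no other, and had a gene held several such probe sets, that of the highest mean would have been kept. By this rule 6 of the 7 genes were measured, each by 1 probe set, of 18417 genes in all. No probe set, of 1 symbol or several, carried FLNA in the annotation used here, and FLNA was not analysed here. LCP1 was chosen by its measured rise after CDK9 silencing, the largest of all genes, and the others were added for their function with the results of that comparison known. The comparison of CDK9 siRNA with control siRNA is therefore given for these genes as a description, and a gene that passed the threshold of the fit across all genes (limma, adjusted p under 0.05) is said to be called.

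The cells were U2OS, a human osteosarcoma line, grown in DMEM with 7.5% FBS. In 4 cultures siRNA against CDK9 was transfected, and 4 control cultures received a non-targeting siRNA, which the sample titles call nonspecific. Both siRNAs were used at 10 nM, and RNA was taken after 72 h and hybridised to 8 Affymetrix arrays. All samples are of a single line, and the sequences of the siRNAs are not used here. CDK9 is the kinase of the elongation factor P-TEFb, and its silencing was the study's question.

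Plastins hold a pair of actin-binding domains in 1 chain, which lets a single molecule link neighbouring filaments into tight bundles, and calcium binding at their amino-terminal end regulates this. L-plastin, the product of LCP1, is known from white blood cells and from many tumour cells of other origin, T-plastin (PLS3) from most solid tissues, and I-plastin (PLS1) from the brush border of the gut and the hair cells of the ear. Fascin bundles the filaments of filopodia, the non-muscle alpha-actinins crosslink filaments of stress fibres and link them to adhesions, and filamin A joins filaments into open networks.

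Replicate 1 of both groups lay apart from the other arrays. Its medians over all probe sets were 5.80 and 5.85 on the log2 scale, against 6.99 to 7.04 for replicates 2 to 4. These 2 arrays are called array set 1 and the other 6 array set 2, and the set was a block in the fit, so that each difference is the mean of the differences within the sets, weighted by their arrays. Over all probe sets, arrays of different sets correlated at 0.975 to 0.981 and those of the same set at 0.992 to 0.997. CDK9 itself read 28.4% of its control level, which checks the labels, with a log2 difference of -1.82 ± 0.05 (SE, n = 4 per group). Over all genes 14.2% were called. Of 9 measured markers of mesenchymal and osteoblast cells 1 was dim, that is, among the lowest 30% of genes by mean level. Called as lower were 3, RUNX2 by 0.60, COL1A1 by 0.51 and VIM by 0.19. VIM had an adjusted p of 0.0808 in limma with the replicate number as block. The other 6 were not called and went both ways. S100A4, CDH2, ALPL and THY1 differed by 0.24, 0.11, 0.07 and 0.05, and SPARC and COL1A2 by -0.23 each. Of 6 epithelial markers 3 were dim, and 1 of these, EPCAM, rose by 0.32 (adjusted p = 0.0841 with that block). The other 5 were not called, with differences from -0.23 (KRT8) to -0.03 (VIL1, -0.0031 in array set 2). The median over all genes was -0.0016. Expression is a mean over the culture, so that fewer cells of a type and less RNA per cell cannot be told apart.

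The stretches before the starts of the plastin genes are shown because these paralogues had the highest differences of the set. They are the 250 bases before the first annotated start in RefSeq (GRCh38.p14), on the strand of the gene. The LCP1 stretch lies at chr13:46182178-46182427 on the minus strand, that of PLS3 at chrX:115560924-115561173 and that of PLS1 at chr3:142596143-142596392, both on the plus strand. Capitals mark matches on either strand to TATAAA (the TATA box), GGGCGG (the GC box), TGANTCA (an AP-1 site), CCAAT (the CCAAT box) or GGAATG (a TEAD site).
LCP1: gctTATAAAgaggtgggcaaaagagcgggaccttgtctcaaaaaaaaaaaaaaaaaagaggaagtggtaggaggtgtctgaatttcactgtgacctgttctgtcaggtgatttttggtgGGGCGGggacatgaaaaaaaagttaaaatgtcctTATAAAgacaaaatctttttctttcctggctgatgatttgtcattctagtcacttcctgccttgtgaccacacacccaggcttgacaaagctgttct
PLS3: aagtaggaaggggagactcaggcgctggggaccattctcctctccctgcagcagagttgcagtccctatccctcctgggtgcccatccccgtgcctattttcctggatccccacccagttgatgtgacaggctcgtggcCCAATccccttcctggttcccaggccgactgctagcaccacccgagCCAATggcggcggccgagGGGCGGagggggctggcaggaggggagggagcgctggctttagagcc
PLS1: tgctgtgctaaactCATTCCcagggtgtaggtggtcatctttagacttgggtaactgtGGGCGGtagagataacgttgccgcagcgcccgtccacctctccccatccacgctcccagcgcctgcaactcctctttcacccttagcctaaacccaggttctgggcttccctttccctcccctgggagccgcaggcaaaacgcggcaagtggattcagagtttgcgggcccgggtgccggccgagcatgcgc

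The LCP1 stretch differed in make-up from those before the first starts of PLS3 and PLS1. Its GC content was 41.2%, against 65.2% for PLS3 and 60.8% for PLS1. This did not hold for their later starts, where GC content was 34% for PLS3 and 38.4% and 37.2% for PLS1. It held TATAAA at 2 places, beginning 247 and 97 bases before the start, and 1 GC box. Among 35114 windows of the same length before all annotated starts in the table, 10.7% held TATAAA and 42.6% held GGGCGG on either strand. The PLS3 stretch held 2 CCAAT boxes and 1 GC box, and CCAAT was found in 32.0% of all windows. The PLS1 stretch held 1 GC box and 1 TEAD match, and the TEAD letters were found in 11.9% of all windows. TGANTCA was in none of the 3 stretches and in 6.57% of all windows; the share of a match is a description, and a match is not shown to be a working site. The table gave 13 starts for 6 of the 7 genes, FLNA included, with 3 for PLS1 and 2 for PLS3, and the arrays do not show which start was used. It held no start of FSCN1, which was therefore not searched. ACTN4 had the only AP-1 match among these 13 windows, before its first start, where 5 GC boxes were found as well.

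LCP1 was higher in every culture given CDK9 siRNA than in any control. Its log2 level (probe set 7971461) was 5.96, 6.06, 6.07 and 6.01 in control replicates 1 to 4. In the CDK9 siRNA group it was 7.69, 8.12, 8.48 and 8.37. The controls thus kept within a narrow range of deposited values, all below the limit for dim genes, 6.14. The silenced cultures were all well above it and more spread. That limit is applied to the mean over all 8 arrays, silenced cultures included, by which LCP1 was not dim. The SD within array set 2 was 0.03 among controls and 0.18 among silenced cultures (n = 3 each).

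The difference was 2.14 ± 0.11 (SE, n = 4 per group) on the log2 scale, or 4.40-fold with a 95% interval of 3.72 to 5.21. Set 1 alone gave 1.73 and set 2 alone 2.28, which is 3.31-fold and 4.84-fold. Within array set 1 LCP1 ranked second of all genes, after SPP1, the secreted matrix protein osteopontin, which differed by 1.82 there. Within array set 2 it ranked at 1. Over both sets the next largest rise was that of SPP1, 1.50 ± 0.08 (SE, n = 4 per group). Its 95% interval was 1.31 to 1.68 on the log2 scale, against 1.90 to 2.38 for LCP1. Both genes were picked from the same ranking by rise, so this is a description.

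The gap between the array sets in controls varied among the 6 genes. The mean of set 2 was above the value of set 1 by 0.08 for LCP1, 0.15 for ACTN1, 0.34 for ACTN4 and 0.46 for PLS1. For PLS3 and FSCN1 it was above by 1.03 and 1.06. Ranked among all genes of its own array, LCP1 stood between percentiles 23.6 and 42.1 in controls and between 58.9 and 70.4 after CDK9 siRNA. The highest control percentile came with the lower scale of array set 1. Probe sets differ in how well they bind, so these ranks place LCP1 on its arrays and do not compare amounts of RNA between genes.

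**Figure D1:**
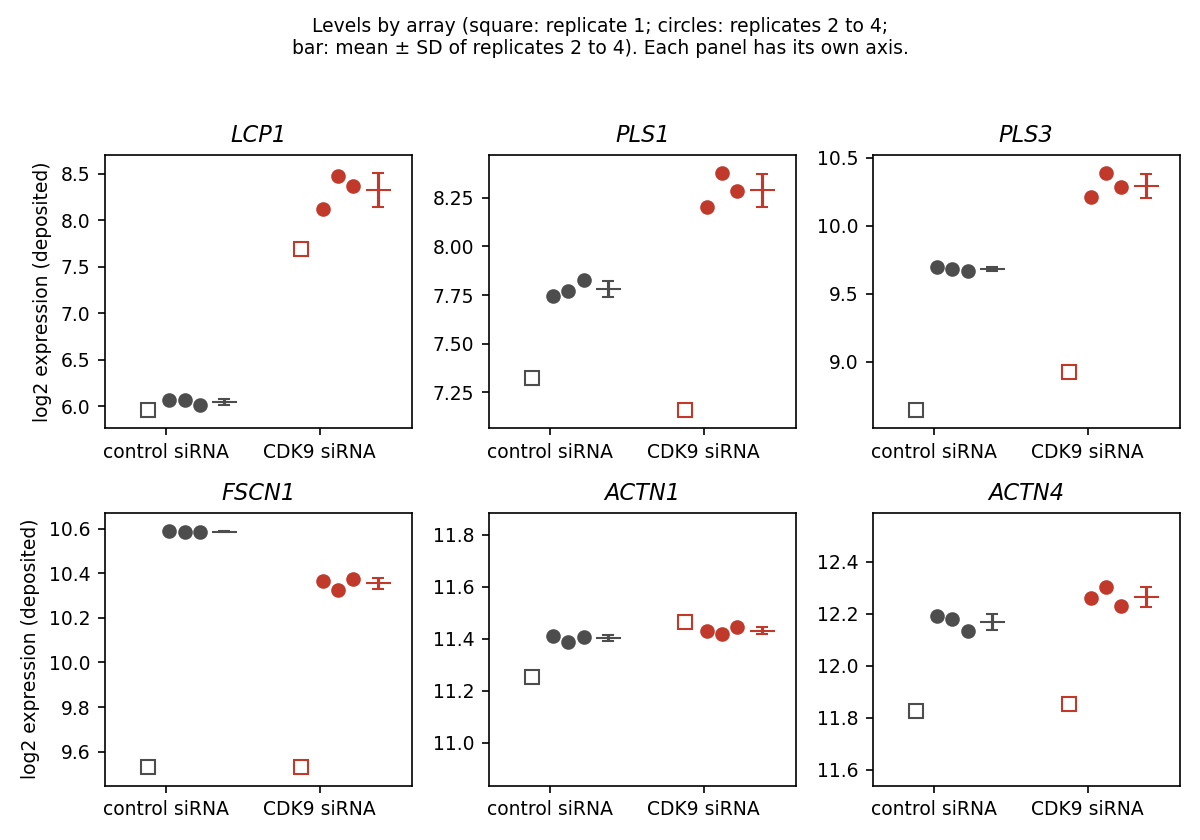
Deposited log2 expression (vertical axis, 1 scale per panel) of the 6 measured genes in each array of the control and CDK9 siRNA groups. Open squares are replicate 1, filled circles replicates 2 to 4, and the bars the mean ± SD of replicates 2 to 4 (n = 3). LCP1 controls sit between 5.96 and 6.07 and silenced cultures between 7.69 and 8.48, and replicate 1 of both groups lies lowest for LCP1, PLS1, PLS3, FSCN1 and ACTN4.

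PLS3, the plastin of solid tissues, was also higher after silencing, by a smaller amount. Its log2 level (probe set 8169473) was 8.65, 9.69, 9.68 and 9.67 in control replicates 1 to 4. After CDK9 siRNA it was 8.93, 10.2, 10.4 and 10.3. Within each array set all silenced cultures were above the controls, but replicate 1 of the CDK9 siRNA group, on the lower scale of set 1, read below the controls of set 2. The difference was 0.53 ± 0.07 (SE, n = 4 per group), or 1.44-fold with a 95% interval of 1.29 to 1.61. The pair of set 1 differed by 0.28 and the arrays of set 2 by 0.61. PLS3 ranked at 153 among all genes by size of rise.

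PLS1, the plastin of the gut brush border, went different ways in the array sets. Its log2 level (probe set 8083146) was 7.32, 7.75, 7.77 and 7.83 in control replicates 1 to 4. After CDK9 siRNA it was 7.16, 8.20, 8.38 and 8.29. The 3 silenced cultures of set 2 were above their controls, with a difference of 0.51, and the silenced culture of set 1 was below its control, with a difference of -0.16. Over both sets the difference was 0.34 ± 0.11 (SE, n = 4 per group, 95% interval 0.09 to 0.59), and PLS1 was not called. The gap between the sets, set 1 minus set 2, was -0.67. Set 1 held 1 array per group, so its own spread could not be measured, and the gap is given as a size only. That gap was -0.55 for LCP1 and -0.34 for PLS3.

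FSCN1, the bundler of filopodia, had the lowest difference of the set. Its log2 level (probe set 8131339) was 9.53, 10.6, 10.6 and 10.6 in control replicates 1 to 4. After CDK9 siRNA it was 9.53, 10.4, 10.3 and 10.4. In array set 1 the cultures differed by 0.0029, and in array set 2 every silenced culture was below every control, with a difference of -0.23. The controls of set 2 lay close together, with an SD of 0.0030 against 0.02 among silenced cultures. Over both sets the difference was -0.17 ± 0.06 (SE, n = 4 per group, 95% interval -0.30 to -0.05), and FSCN1 was not called.

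The alpha-actinins differed least. The log2 level of ACTN1 (probe set 7979824) was 11.3, 11.4, 11.4 and 11.4 in control replicates 1 to 4, and 11.5, 11.4, 11.4 and 11.4 after CDK9 siRNA. Its difference was 0.07 ± 0.05 (SE, n = 4 per group, 95% interval -0.04 to 0.19), and it was 0.21 for set 1 and 0.03 for set 2. ACTN1 was thus the gene of the set whose difference came mostly from the single pair of set 1. ACTN4 (probe set 8028524) read 11.8, 12.2, 12.2 and 12.1 in controls and 11.9, 12.3, 12.3 and 12.2 after CDK9 siRNA. Its difference was 0.08 ± 0.05 (SE, n = 4 per group, 95% interval -0.03 to 0.19). Neither was called, and the upper ends of both intervals correspond to 1.14-fold. Their levels lay between percentiles 97.3 and 99.5 of their arrays, where signals can flatten, and whether that held here was not tested.

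Counted over the set, 2 of the 6 measured genes were called, LCP1 and PLS3, both as higher. Over all genes 14.2% were called, 6.73% as higher and 7.47% as lower. Blocking on replicate number also called 2 of 6, against 9.17% of all genes, and in array set 2 alone it was 4 of 6, against 18.1%. Without any block 0 of 6 were called, as were 0% of all genes (limma; before adjustment, 28 genes rose and 23 fell at p under 0.05). The calls gained in set 2 alone were PLS1 as higher and FSCN1 as lower. The levels of the groups did not overlap in array set 2 for any of the 6 genes, but 38.1% of all genes had no overlap there, 18.7% as higher, which was the direction of 5 of the 6. Over all 8 arrays as deposited the groups did not overlap for 2 of the 6, LCP1 and ACTN1, against 0.483% of all genes. This count depends on the gap between the array sets. In controls that gap was smallest of the 6 for LCP1 and ACTN1, at 0.08 and 0.15, and ACTN1 was not called. Since the comparison chose the set, nothing is read from these counts.

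**Figure D2:**
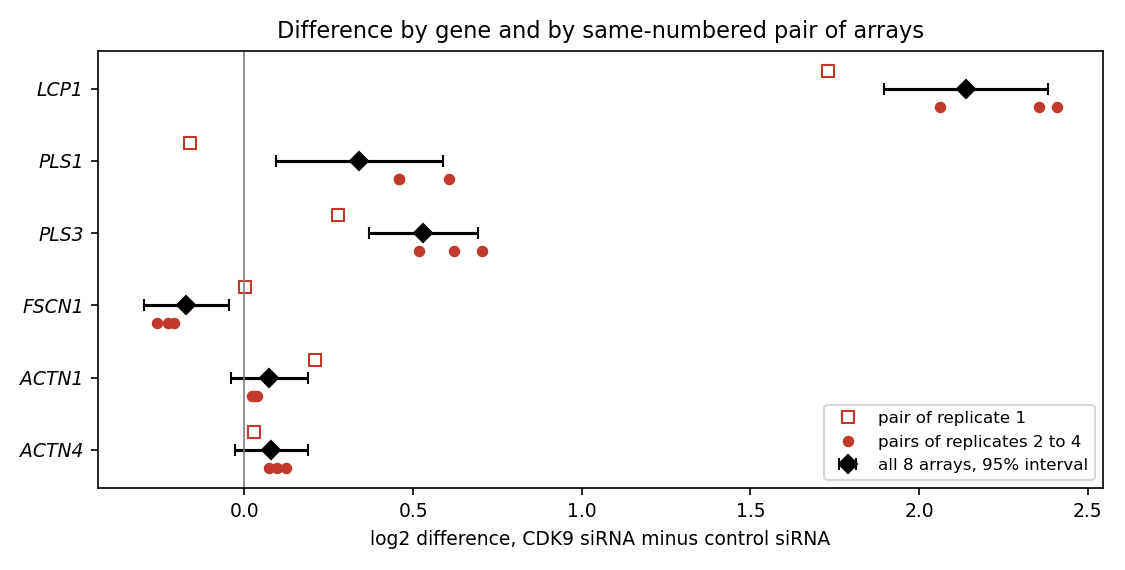
Log2 difference of CDK9 siRNA minus control siRNA (horizontal axis) for the 6 measured genes. Diamonds with bars are the fit over all 8 arrays with its 95% interval, open squares the pair of replicate 1, and filled circles the pairs of replicates 2 to 4. LCP1 stands at 2.14, PLS3 at 0.53, PLS1 has its replicate 1 pair at -0.16 below 0, and FSCN1 lies at -0.17.

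White blood cell genes were mostly dim, and none of those listed was called. L-plastin is a usual product of these cells, so 16 of their genes had been listed, of which 15 were measured. Of these, 0 were called in either direction (limma; 1 at an unadjusted p under 0.05), against 14.2% of all genes, and 11 of the 15 were dim. In array set 2 alone CORO1A, coronin-1A, was called as lower (-0.44, limma adjusted p = 0.00552), while it differed by 0.12 in set 1. Their differences ran from -0.30 (CORO1A) to 0.13 (CD48), with a median of 0.04 against -0.0016 over all genes. The mean level of the list was 4.65 in the control and 4.78 in the silenced culture of array set 1, 5.76 to 5.80 in controls of set 2 and 5.69 to 5.80 in silenced cultures of set 2. PTPRC, the common leukocyte antigen CD45, read 3.25 to 4.65 in controls and 3.14 to 4.57 after CDK9 siRNA. Its difference was -0.11 in set 1 and -0.06 in set 2.

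Close paralogues of the set gave 0 calls of 4 (limma; 1 at an unadjusted p under 0.05), where 14.2% of all genes were called. FSCN2 and FSCN3, the fascins of retina and testis, and ACTN2 and ACTN3, the alpha-actinins of muscle, were measured, and 3 of the 4 were dim. Their differences were 0.05 for FSCN2, -0.13 for FSCN3, 0.16 for ACTN2 and -0.0020 for ACTN3. FSCN2 differed by 0.64 in set 1 and by -0.14 in set 2. ACTN2 was called, at 0.21, without control replicate 4 (limma adjusted p = 0.0479).

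Among other genes of the actin filament system, changes went both ways. Of 97 measured genes in 4 lists, paralogues included, 9 rose and 9 fell, which is 18.6% of them against 14.2% of all genes. Their median difference was -0.0054 against -0.0016 over all genes, and their differences ran from -0.67 to 0.73. The rise of 1 of them (ITGB3) exceeded that of PLS3. In 17 of the 18 that passed, both array sets had the same sign, PDLIM4 (0.00033 and -0.47) being the other. The 18 were called from both sets together, so this agreement is partly built in and is no separate check. Without array set 1, 14 of the 97 rose and 13 fell, where 18.1% of all genes were called.

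Other bundlers and crosslinkers split evenly, with 2 of 27 higher and 2 lower (14.8% called, against 14.2% of all genes) and a median of -0.0020. AIF1L, a relative of the actin-bundling protein AIF1, rose by 0.45 ± 0.08 (SE, n = 4 per group, limma adjusted p = 0.00658). CALD1, caldesmon, which binds actin and tropomyosin, rose by 0.30. DBN1, drebrin, which decorates filament sides, fell by 0.37. BAIAP2, which couples membrane bending to filament growth, fell by 0.23 and lost its call without control replicate 2 or 3 (adjusted p up to 0.0624).

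Genes for actin and its assembly gave 3 of 38 higher and 4 lower (18.4% called, against 14.2% of all genes), with a median of -0.01. The largest fall was that of GSN, gelsolin, which severs and caps filaments, by 0.67 ± 0.06 (SE, n = 4 per group, limma adjusted p = 0.000356). WASF2, an activator of the Arp2/3 complex, fell by 0.34, and the formins FMNL3 and FMNL2 (dim) fell by 0.31 and 0.27. DIAPH3, another formin, rose by 0.42, TMOD3, which caps the slow-growing filament end, by 0.30, and the Arp2/3 subunit ARPC1A by 0.18. Blocking on replicate number ended the calls of ARPC1A (adjusted p = 0.0852), FMNL2 (0.0889) and FMNL3 (0.0548). On leaving out 1 array, ARPC1A and FMNL2 kept theirs without CDK9 siRNA replicate 4 and lost it without any other. FMNL3 lost its call without control replicate 2, 3 or 4 and without silenced replicate 2 or 3.

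Adhesion linkers and partners of filamin or actinin gave 4 of 28 higher and 3 lower (25% called, against 14.2% of all genes), with a median of 0.01. ITGB3, the integrin beta3 subunit, rose by 0.73 ± 0.07 (SE, n = 4 per group, limma adjusted p = 0.000303), the largest difference of the lists. CSRP1, a LIM protein that binds alpha-actinin, rose by 0.45, FERMT2, the integrin activator kindlin-2, by 0.35, and LIMS1 of the integrin-linked kinase complex by 0.21. PDLIM4, a partner of alpha-actinin, fell by 0.35, FBLIM1, which binds filamin, by 0.28, and ZYX, zyxin, by 0.19. Blocking on replicate number ended the calls of PDLIM4 (adjusted p = 0.0619), LIMS1 (0.0857) and ZYX (0.111). PDLIM4 and ZYX also lost theirs without any 1 array of set 2, and LIMS1 without control replicate 2, 3 or 4 and without silenced replicate 3 or 4. Over the 4 lists 12 of the 18 genes kept their calls with replicate number as the block. Of the 18, 11 kept them there, in array set 2 alone and on leaving out each array in turn. Calls fell over all genes too, from 14.2% with the array set as block to 9.17% with replicate number.

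**Figure D3:**
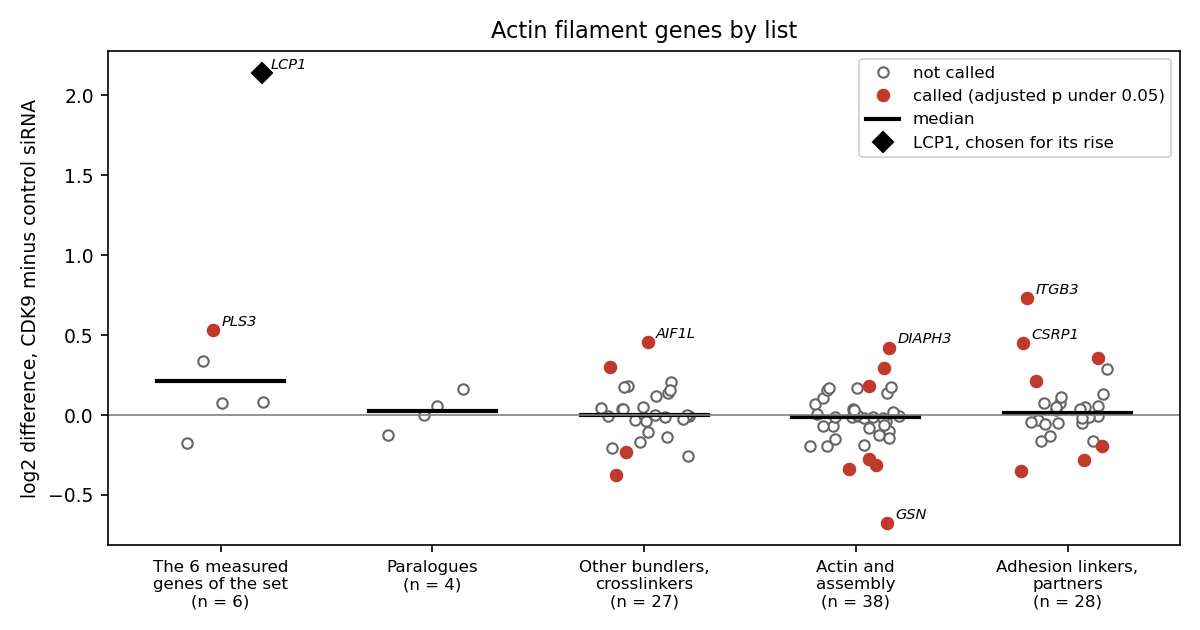
Log2 difference of CDK9 siRNA minus control siRNA (vertical axis) for the 6 measured genes of the set and for 4 lists of other actin filament genes. Filled red circles passed limma's test at an adjusted p under 0.05, open circles did not, the black diamond is LCP1 and black lines are medians. LCP1 at 2.14 stands above all others, with ITGB3 at 0.73 and GSN at -0.67 as the extremes of the lists.

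The genes beside LCP1 on chromosome 13 were looked at as well. Of the 5 nearest measured protein-coding genes on each side in RefSeq order, 2 of 10 were called, both as higher. Over all genes 14.2% were called and 6.73% were called as higher, and nothing is read from a count of 10 genes. The next genes were CPB2 (0.0072, dim) and ZC3H13 (-0.12) on one side, and LRRC63 (0.25, dim) and RUBCNL (-0.0061, dim) on the other. LRRC63 passed (limma adjusted p = 0.0450) but not with replicate number as the block (0.0875) nor on leaving out any 1 array of set 2, and it differed by -0.0019 in array set 1. HTR2A, a serotonin receptor and the fifth gene on that side, rose by 0.63 ± 0.11 (SE, n = 4 per group, limma adjusted p = 0.00590), at 0.14 for set 1 and 0.80 for set 2. HTR2A was dim by its mean level.

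**Figure D4:**
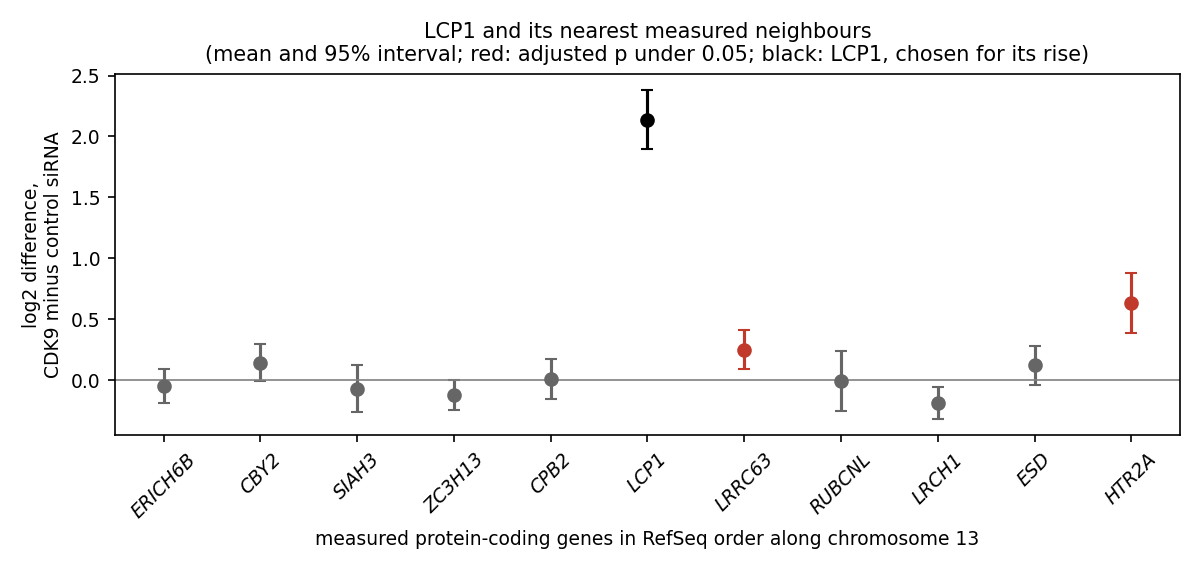
Log2 difference of CDK9 siRNA minus control siRNA with its 95% interval (vertical axis) for LCP1 and the 5 nearest measured protein-coding genes on each side, in RefSeq order along chromosome 13 (horizontal axis, not to scale). Red points passed limma's test at an adjusted p under 0.05, and the black point is LCP1. LCP1 stands at 2.14 between CPB2 at 0.0072 and LRRC63 at 0.25, and HTR2A lies at 0.63.

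The genes most like LCP1 over the 8 arrays are named as a description, since the measure follows the rise that chose LCP1 and the 5 closest are those of the next largest rises. Likeness was the root mean square gap between a gene and LCP1 in log2 levels, each centred on its mean in each array set, which mixes size and shape. The 5 smallest gaps were 0.40 for SPP1, 0.46 for SPX, 0.47 for TMEM255A, 0.51 for MLLT11 and 0.52 for CCL2, against a median of 1.08 over all genes, 0.81 for PLS3 and 0.90 for PLS1. SPP1 and MLLT11 had the larger difference in set 1 (1.82 and 1.31, against 1.39 and 1.13 in set 2). SPX, TMEM255A and CCL2, like LCP1, had the larger one in set 2, at 1.64, 1.38 and 1.45 against 0.26, 0.68 and 0.32.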

How the data were processed

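Labelled RNA of 4 CDK9 siRNA and 4 control cultures was measured on 8 arrays. The authors deposited log2 expression values of 33297 probe sets. RMA, Affymetrix Expression Console 1.1, limma and hg19 are named per the submitters' processing notes, without role or order, and the grouping of arrays for normalization is not given in these sources. Array sets follow gaps in the running numbers of the array descriptions, and the number of arrays limits the precision.

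In the platform annotation 19460 probe sets had 1 symbol, 1754 had several and 12083 had none. Entrez identifiers matched RefSeq (GRCh38.p14) for 19429, which changed 0 symbols. The probe set with the highest mean per gene left 18417 genes. The test was two-sided, by lmFit and eBayes of limma 3.58.1 (R 4.3.3), blocked on the array set and with Benjamini-Hochberg adjustment over all genes. This was checked on simulated data. Plots used matplotlib 3.10.9, numpy 2.4.6 and pandas 2.3.3 under Python 3.11.15. Promoter windows came from RefSeq.

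Both groups carry the replicate numbers 1 to 4. Within same-numbered pairs, deviations from group means correlated at 0.822, 0.537, 0.494 and 0.607, above 0.1, the limit for running a fit blocked on the numbers. The gap between array sets was not taken out of these deviations. The correlations therefore cannot tell pairing by number from that gap, and the fit is given only as a further setting. The series' design text calls the replicates biological.

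The set and the lists were chosen with earlier results of these data known. Named genes are the genes of the set, list genes that passed, the measured paralogues, the next largest rise, the 5 genes most like LCP1, its nearest neighbours and CDK9. CORO1A, CD48, PTPRC, EPCAM, KRT8, VIL1 and the mesenchymal markers were named besides, after their values were seen. Settings tried are given in the closing section.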

Additional observations from a re-analysis of the deposited data

Results flagged for a closer look

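In a group of 4 values, 1 value far from the others was seen for 5 of the 6 measured genes, and chance gives this for about 1 in 20 groups. It was replicate 1 each time, whose arrays lay on a lower scale. Levels set apart were 7.32 (control) and 7.16 (CDK9 siRNA) for PLS1, 8.65 and 8.93 for PLS3, 9.53 and 9.53 for FSCN1, and 11.8 and 11.9 for ACTN4. For ACTN1 the control of replicate 1 at 11.3 was set apart, and so was its difference between same-numbered arrays, 0.21. No LCP1 value was set apart in this way.

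PLS1 differed between array sets, with a difference in set 1 minus that in set 2 of -0.67 (higher in 3 of 3 pairs of set 2 and lower in the pair of set 1). The spread within set 1 could not be measured from its single pair. What sets the array sets apart was not tested.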

How the results depend on the processing

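All 6 differences kept their sign under every setting run except in array set 1 alone, where PLS1 read -0.16 and FSCN1 0.0029. There LCP1 read 1.73, PLS3 0.28, ACTN1 0.21 and ACTN4 0.028, from 1 pair. In array set 2 alone LCP1 read 2.28, PLS1 0.51 and FSCN1 -0.23, and both of the latter were called. They were also called, at 0.34 and -0.17, with dim genes left out and with a trended, robust prior, which made 3 calls beside LCP1 in place of 1 in each of these 3 settings. Without a block PLS3 kept its 0.53 but no call (adjusted p = 1.0). That fit called 0 genes of the set, 0 pathway genes and 0 genes in all in either direction (limma; before adjustment, 28 genes rose and 23 fell at p under 0.05). With the replicate block 813 genes were higher and 875 lower, against 1239 and 1376, and 5 pathway genes were lower in place of 9; it changed no call in the set of 6. In array set 2 alone 14 pathway genes were higher in place of 9, where 18.1% of all genes were called. Leaving out each array in turn gave 2.06 to 2.28 for LCP1, 0.28 to 0.51 for PLS1, 0.48 to 0.61 for PLS3, -0.23 to -0.15 for FSCN1, 0.03 to 0.09 for ACTN1 and 0.06 to 0.10 for ACTN4. It gave 714 to 1753 higher and 806 to 1578 lower genes, the fewest without control replicate 3, and 7 to 14 higher and 4 to 13 lower pathway genes, with 1 to 3 calls beside LCP1. Leaving out either array of replicate 1 equals array set 2 alone, since the block absorbs its partner. Each gene of the set had 1 probe set, so its other probe sets could not be tried. Of 33 other named genes, 26 kept their side of the threshold with the replicate block. Of the 33, 4 changed sign in some setting (ACTN3, CPB2, FSCN2 and RUBCNL); 0 of these 4 were called, and the lowest adjusted p at such a change was 0.323 (limma). Array set 1 alone was not run for these 33. Centring arrays on their medians or quantile normalizing them again moved the median of all genes to 0.0046 and -0.0023.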
